A study of Rattus norvegicus with 6 samples.

Results

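The transcripts of 6 chemokine genes, Ccl2, Ccl3, Ccl5, Cxcl1, Cxcl10 and Cxcl12, were followed in the implanted spinal cord. The genes were chosen by name and Ensembl rat gene ID, by a rule that used no measured value, but with earlier results of these data known. All 6 were present among the 22526 genes of the expression table. RNA had been taken from the spinal cord of 6 adult female rats of the Sprague-Dawley strain, 1 library per rat, at 2 weeks from injury of the cord. In 3 rats the injury had been bridged with a decellularized optic nerve scaffold carrying the aptamer Apt19S, a short folded nucleic acid (A-DON), and in 3 with the decellularized optic nerve scaffold alone (DON). All 6 rats were injured and implanted, so DON was the only group that A-DON could be set against, and the cord of an uninjured rat was not analysed here. A-DON libraries held 24961512 to 28911941 reads assigned to genes, and DON libraries 29143139 to 31189687. Every A-DON library was thus shallower than every DON library.

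Chemokines are small secreted proteins that draw cells along a gradient by acting on receptors of the G protein-coupled family. Ccl2, Ccl3 and Ccl5 belong to the CC class, named for adjacent cysteines, and mainly call monocytes, macrophages and T cells. Cxcl1, Cxcl10 and Cxcl12 belong to the CXC class, in which a residue separates these cysteines. In injured cord, astrocytes, endothelial cells, microglia and infiltrating myeloid cells are known sources of the inducible members, whereas Cxcl12 is made constitutively by stromal, endothelial and meningeal cells and guides cells that carry Cxcr4, neural progenitors among them.

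Read levels of all 6 chemokines were lower on average in A-DON than in DON cords, and the test was passed by 3 of them, all of the CXC class. Cxcl1, Cxcl10 and Cxcl12 fell in A-DON (limma, Benjamini-Hochberg adjusted p under 0.05 over 19515 tested genes), against a background of 16.6% of tested genes that fell and 35.5% that passed in either direction. Ccl2, Ccl3 and Ccl5 had negative fold changes that did not pass. Mean levels in A-DON were 10.5% (Cxcl1) to 30.6% (Ccl3) of the DON means. The median log2 fold change of the 6 genes was -2.59, beside -0.02 over all tested genes. In bulk cord RNA, fewer cells that make a chemokine and less of its RNA per cell cannot be told apart. Over the whole transcriptome 3232 genes fell and 3698 rose in A-DON, and with scaling to equal library totals 2418 fell and 4372 rose.

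A-DON replicate 2 stood apart from the other A-DON libraries. The chi-square of read counts over all genes, divided by its degrees of freedom, was 172 and 148 between replicate 2 and A-DON replicates 1 and 3, against 21.9 between A-DON replicates 1 and 3. Between A-DON replicate 2 and the DON libraries it was 158 to 271, and between the other A-DON libraries and DON 447 to 713. Within DON it was 168 and 172 between replicate 1 and replicates 2 and 3, against 53.6 between replicates 2 and 3. DON replicate 1 thus also stood apart from its group, and the fits without it are given further below. These values also grow with depth. Over 1617 other genes that were at least 4-fold lower in A-DON replicates 1 and 3 than in DON, averaging 50 or more normalized counts, replicate 2 had a median position of 0.27 on the log2 scale (quartiles 0.16 and 0.38), where 0 is the DON mean and 1 the mean of the other A-DON libraries. Choosing the genes without replicate 2 can by itself move it toward DON, so this position describes it and is no test. Each chemokine is therefore given with and without this library. Without A-DON replicate 2, all 6 chemokines passed the test, against a background of 24.9% of tested genes that fell. This library was picked from these same data and was the highest A-DON library for all 6. Leaving it out therefore makes each difference larger by construction, and the fits without it are a description and no added support. Normalized counts are read counts divided by a size factor for each library, and the test was run on log2(normalized count + 1), a scale on which scarcely read genes show too small a change.

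**Figure D1:**
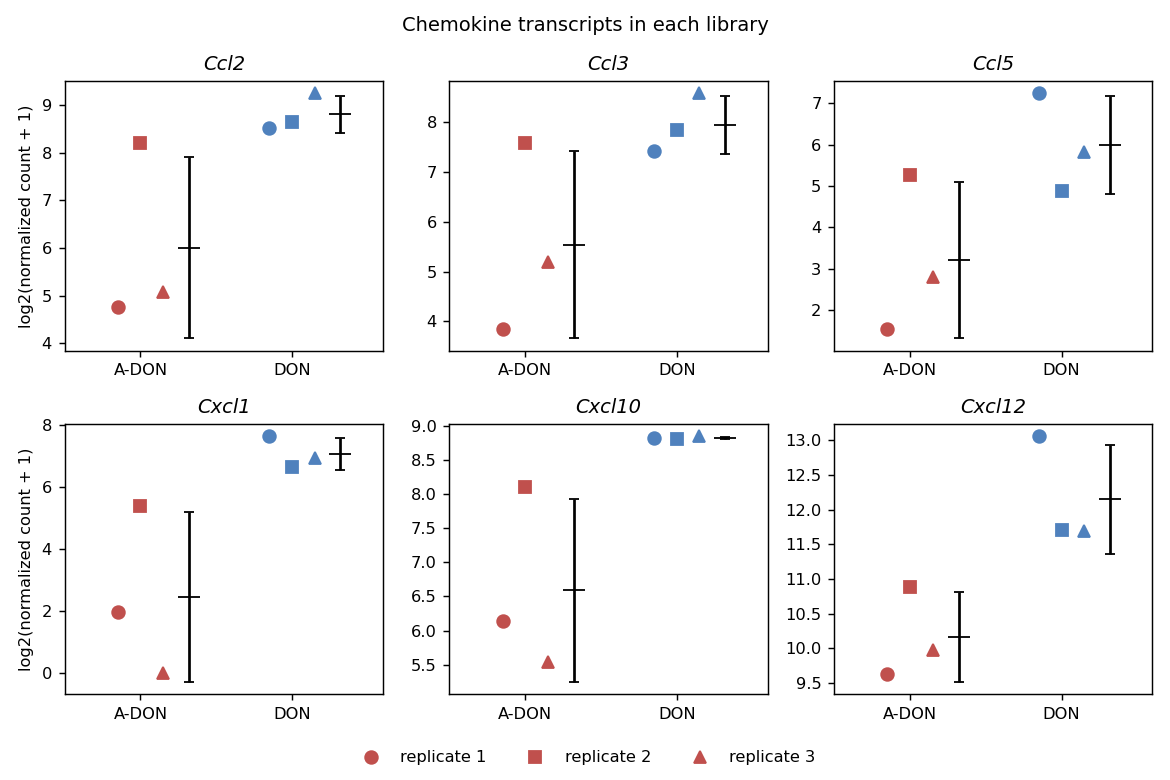
Level of each chemokine as log2(normalized count + 1) on the y axis, in 3 A-DON and 3 DON libraries (circle, square and triangle for replicates 1, 2 and 3; bars are the mean and SD of each group). In all 6 panels A-DON replicate 2 is the highest A-DON library, and it lies within the DON range for Ccl3 and Ccl5. Each panel has its own y range.

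Among the CC chemokines, Ccl2 (ENSRNOG00000007159), the main monocyte attractant acting through Ccr2, had 26.0, 293 and 32.6 normalized counts in A-DON replicates 1, 2 and 3, against 366, 399 and 607 in DON replicates 1, 2 and 3. The groups did not overlap, but A-DON replicate 2 was 11.3 times as high as replicate 1 and 9.0 times as high as replicate 3. Means were 117 ± 153 in A-DON and 457 ± 131 in DON (SD, n = 3 each). The fitted log2 fold change was -2.79 ± 0.93 (standard error), at a limma adjusted p of 0.059, so the difference did not pass the threshold. Without A-DON replicate 2 it was -3.89 with a limma adjusted p of 0.00099.

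Ccl3 (ENSRNOG00000011205), also known as MIP-1a, acts on Ccr1 and is a product of activated microglia and macrophages. Its normalized counts were 13.5, 189.9 and 35.6 in A-DON replicates 1, 2 and 3, against 169.7, 229 and 383 in DON replicates 1, 2 and 3. The groups overlapped, because A-DON replicate 2 lay above DON replicate 1, while A-DON replicates 1 and 3 lay far below every DON library. The fitted log2 fold change, -2.41 ± 0.94 (standard error), did not pass (limma adjusted p = 0.091). Without A-DON replicate 2 it was -3.42 (limma adjusted p = 0.0062).

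Ccl5 (ENSRNOG00000010906), also known as Rantes, draws T cells and monocytes and was read at low counts. It had 1.93, 37.8 and 5.93 normalized counts in A-DON replicates 1, 2 and 3, against 151, 28.6 and 55.6 in DON replicates 1, 2 and 3. A-DON replicate 2 lay above DON replicate 2, so the groups overlapped, and DON itself spread 5.27-fold from lowest to highest. The value in A-DON replicate 1 rests on 2 reads, with an exact 95% Poisson interval of 0.24 to 7.22 reads, and that in A-DON replicate 3 on 6 reads (2.20 to 13.1 reads). The fitted log2 fold change, -2.78 ± 1.08 (standard error), did not pass (limma adjusted p = 0.089). Without A-DON replicate 2 it was -3.81 (limma adjusted p = 0.015).

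In the RefSeq annotation of the rat assembly GRCr8, Ccl5 and Ccl3 lie close together, with 2 protein-coding genes between them, and Ccl3 stands between Ccl6 and Ccl4. Ccl2 lies farther along the same chromosome, next to Ccl7, with 31 protein-coding genes between it and Ccl5. Cxcl1 neighbours Cxcl2, and Cxcl10 stands between Cxcl11 and Cxcl9, with 19 protein-coding genes between Cxcl1 and Cxcl10. How reads shared by such related genes were assigned is not given in the sources used here, and its part in these values was not tested.

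The 250 bases before the annotated start are shown for the 3 CXC chemokines, the only members with an entry in the promoter table used here. Their known control is unlike: Cxcl1 and Cxcl10 are inducible through NF-κB, and Cxcl10 also by interferons. The sequences are RefSeq's on GRCr8, 5′ to 3′ on the strand of the gene, and span chr14:17479322-17479571 (Cxcl1, minus strand), chr14:15988816-15989065 (Cxcl10, plus strand) and chr4:152060531-152060780 (Cxcl12, plus strand). Capitals mark matches to the κB motif in its usual degenerate form, the interferon-stimulated response element (ISRE, searched as the letters GAAA, any 2 bases, GAAA) or the AP-1 motif (searched as TGANTCA), each on both strands.
Cxcl1: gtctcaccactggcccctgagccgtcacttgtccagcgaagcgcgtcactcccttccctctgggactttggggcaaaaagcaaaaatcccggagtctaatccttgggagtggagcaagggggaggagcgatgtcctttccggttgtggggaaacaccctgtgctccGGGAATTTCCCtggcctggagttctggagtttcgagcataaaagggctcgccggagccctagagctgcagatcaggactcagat
Cxcl10: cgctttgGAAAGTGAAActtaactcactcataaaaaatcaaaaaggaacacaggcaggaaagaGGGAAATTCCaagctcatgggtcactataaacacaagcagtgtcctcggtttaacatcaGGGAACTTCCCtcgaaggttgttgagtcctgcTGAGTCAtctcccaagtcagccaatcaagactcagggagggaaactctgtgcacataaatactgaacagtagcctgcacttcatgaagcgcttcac
Cxcl12: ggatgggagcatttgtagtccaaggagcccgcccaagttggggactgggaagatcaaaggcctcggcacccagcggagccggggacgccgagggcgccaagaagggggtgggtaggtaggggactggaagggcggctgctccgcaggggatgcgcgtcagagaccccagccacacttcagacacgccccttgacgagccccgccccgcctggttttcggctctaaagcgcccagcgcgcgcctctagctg
Cxcl1 held κB matches that overlap on opposite strands, 84 to 74 bases before the start, and no ISRE or AP-1 match. Cxcl10 held an ISRE match at 243 to 234 bases, κB matches at 187 to 178 and, overlapping on opposite strands, at 128 to 118 bases, and an AP-1 match at 96 to 90 bases before the start. None of the 3 motifs was found in the window of Cxcl12. Of 33469 annotated promoter windows of the same length, 6.33% held a κB match, 3.41% an ISRE match and 6.34% an AP-1 match. A match describes the letters only and does not show binding.

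Cxcl1 (ENSRNOG00000002802), the neutrophil attractant of the rat that acts through Cxcr2, showed the largest fold change of the 6. It had 2.89, 41.0 and 0 normalized counts in A-DON replicates 1, 2 and 3, against 197, 98.2 and 121 in DON replicates 1, 2 and 3. All 3 A-DON libraries lay below all 3 DON libraries, and A-DON replicates 1 and 3 were close to the detection limit, with 3 and 0 reads. The exact two-sided 95% Poisson interval of 0 reads reaches 3.69 reads, or 3.65 normalized counts in that library. Means were 14.6 ± 22.9 in A-DON and 139 ± 51.9 in DON (SD, n = 3 each). The fitted log2 fold change was -4.62 ± 1.33 (standard error), at a limma adjusted p of 0.041, and without A-DON replicate 2 it was -6.09 (limma adjusted p = 0.0025). Leaving out any of the other 5 libraries ended the call, with limma adjusted p of 0.080 to 0.13 and log2 fold changes of -4.83 to -3.39, and so did a replicate block (limma adjusted p = 0.086) and a fit without trend and robust moderation (limma adjusted p = 0.053). Of all tested genes, 0.17% had a log2 fold change as low or lower. Because of the low A-DON counts the size depends on the number added before the log2: it was -5.85 with 0.1 added, where the call was lost (limma adjusted p = 0.076), and -3.12 with 8 added (limma adjusted p = 0.024).

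Cxcl10 (ENSRNOG00000022256), the interferon-inducible ligand of Cxcr3 on activated T cells, had 69.3, 273 and 45.5 normalized counts in A-DON replicates 1, 2 and 3, against 452, 449 and 459 in DON replicates 1, 2 and 3. The DON libraries were nearly equal: their spread was smaller than the 95% Poisson interval of each library, 412 to 494 normalized counts in DON replicate 1. The A-DON libraries spread 6.0-fold and all lay below DON. The SD on the log2 scale was 1.34 in A-DON and 0.016 in DON (n = 3 each), and the model uses 1 variance for both groups. The fitted log2 fold change was -2.24 ± 0.64 (standard error), at a limma adjusted p of 0.042, and without A-DON replicate 2 it was -2.99 (limma adjusted p = 0.0010). Leaving out any of the other 5 libraries ended the call, with limma adjusted p of 0.089 to 0.14 and log2 fold changes of -2.24 to -1.71. The call was also lost with a replicate block (limma adjusted p = 0.082), with scaling to equal library totals (log2 fold change -2.14, limma adjusted p = 0.051) and without trend and robust moderation (limma adjusted p = 0.054).

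Cxcl12 (ENSRNOG00000013589), the ligand of Cxcr4 and Ackr3, had by far the most reads behind its values, 825 to 8922 per library. It had 794, 1896 and 1007 normalized counts in A-DON replicates 1, 2 and 3, against 8504, 3339 and 3302 in DON replicates 1, 2 and 3. All A-DON libraries lay below all DON libraries, and the highest DON value, that of replicate 1, was 2.58 times the lowest. The fitted log2 fold change was -1.98 ± 0.49 (standard error), at a limma adjusted p of 0.028, and 8.27% of tested genes had one as low or lower. Without A-DON replicate 2 it was -2.34 (limma adjusted p = 0.012). The call was lost without A-DON replicate 1 (-1.72, limma adjusted p = 0.10), A-DON replicate 3 (-1.89, adjusted p = 0.10), DON replicate 1 (-1.53, adjusted p = 0.051) or DON replicate 3 (-2.21, adjusted p = 0.063), and with a replicate block (limma adjusted p = 0.088).

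**Figure D2:**
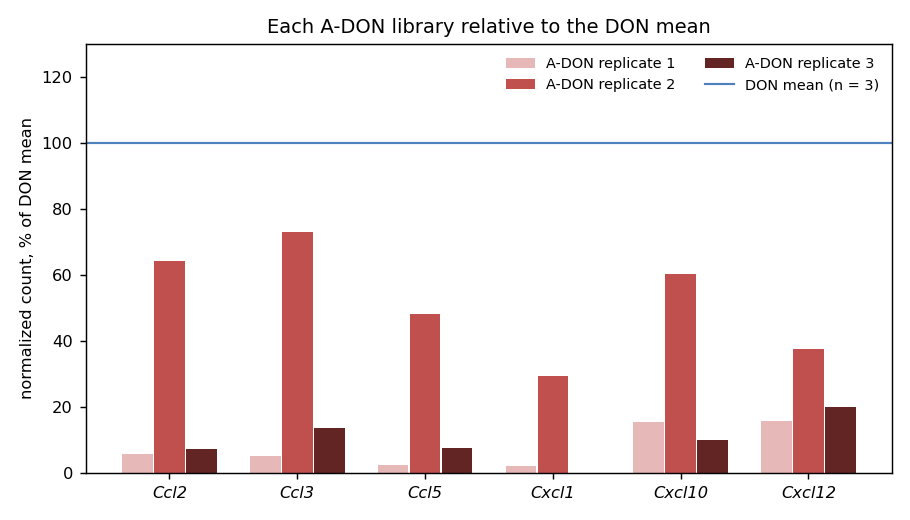
Normalized count of each chemokine in A-DON replicates 1, 2 and 3 as a percentage of the DON mean (y axis; the line at 100% is the mean of 3 DON libraries). A-DON replicates 1 and 3 lie at 0% to 19.9% of the DON mean, and A-DON replicate 2 at 29.5% (Cxcl1) to 72.9% (Ccl3).

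Replicate 2 was the highest A-DON library for all 6 genes, as it was for 38.6% of tested genes. That share covers genes that rose in A-DON as well as genes that fell, and the share among falling genes alone was not counted. All 12 values of A-DON replicates 1 and 3 lay below the lowest DON value of the same gene, a pattern that both libraries showed in 35.7% of tested genes. The order of these 2 libraries varied, with replicate 1 the lowest of all libraries for 4 genes and replicate 3 for Cxcl1 and Cxcl10. Counting replicate 2 as well, the groups did not overlap for 4 of 6 chemokines, beside 27.9% of tested genes whose A-DON values lay entirely below DON.

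The place of A-DON replicate 2 on the way from DON to the other A-DON libraries differed from gene to gene. On the log2 scale its position was 0.11 for Ccl3, 0.15 for Ccl2, 0.19 for Ccl5, 0.24 for Cxcl10 and 0.27 for Cxcl1, nearer to DON, and 0.54 for Cxcl12. On the linear scale of normalized counts the positions were 0.30 for Ccl3, 0.38 for Ccl2, 0.54 for Ccl5, 0.46 for Cxcl10, 0.71 for Cxcl1 and 0.76 for Cxcl12, beside a median of 0.52 (quartiles 0.39 and 0.64) over the 1617 genes above. On both scales Ccl3 lay below and Cxcl12 above the quartiles of those genes. Ccl2 lay almost on the lower quartile, at 0.155 against 0.162 on the log2 and 0.383 against 0.387 on the linear scale. This rests on 1 rat and was not tested.

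**Figure D3:**
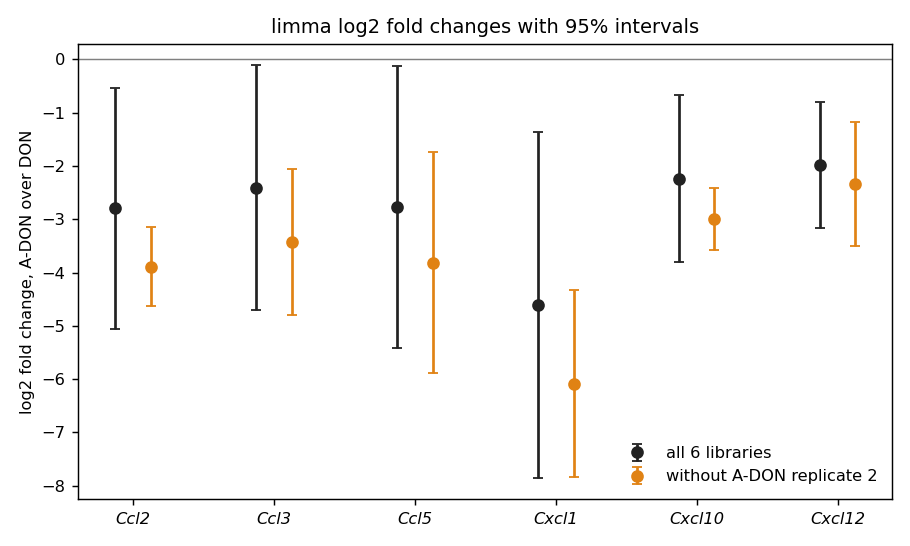
limma log2 fold change of A-DON over DON with its 95% interval for each chemokine (y axis), with all 6 libraries in black and without A-DON replicate 2 in orange. All fold changes are negative, from -4.62 to -1.98 with all libraries and from -6.09 to -2.34 without A-DON replicate 2.

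The 95% intervals were wide. With all libraries the interval of the log2 fold change was -7.86 to -1.37 for Cxcl1, -3.81 to -0.66 for Cxcl10 and -3.17 to -0.80 for Cxcl12. It was -5.06 to -0.53 for Ccl2, -4.71 to -0.10 for Ccl3 and -5.43 to -0.13 for Ccl5. These intervals are not adjusted for the number of genes tested, and they overlap, so passing the test in the CXC and not in the CC genes does not show that the classes differed, which was not tested.

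**Figure D4:**
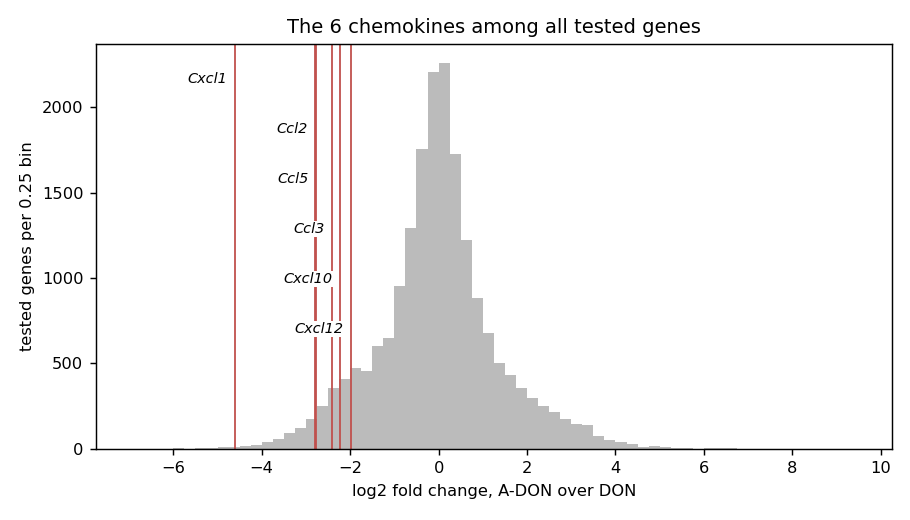
Number of tested genes (y axis) by log2 fold change of A-DON over DON in bins of 0.25 (x axis), with the 6 chemokines as red lines. The lines stand left of the median of -0.02, between -4.62 and -1.98, and the 5th percentile of all tested genes is -2.38.

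Set among all tested genes, 2.75% had a log2 fold change as low as Ccl2 or lower, 2.81% as low as Ccl5, 4.84% as low as Ccl3 and 6.10% as low as Cxcl10. Ccl2, Ccl3, Ccl5 and Cxcl1 thus lay beyond the 5th percentile of -2.38, and Cxcl10 and Cxcl12 inside it.

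Ratios between chemokines within a library, which no library scaling can move apart from the added 1, were compared for 4 chosen combinations. The log2 ratio of Ccl5 to Ccl2 averaged -2.80 ± 0.48 in A-DON and -2.82 ± 1.35 in DON (SD, n = 3 each; exact two-sided permutation p = 1, adjusted p = 1). That of Ccl3 to Ccl2 averaged -0.47 ± 0.53 in A-DON and -0.86 ± 0.23 in DON (exact permutation p = 0.4, adjusted p = 0.53). That of Cxcl10 to Cxcl1 averaged 4.14 ± 1.42 in A-DON and 1.76 ± 0.51 in DON, and that of Cxcl12 to Cxcl1 averaged 7.72 ± 2.24 in A-DON and 5.08 ± 0.33 in DON. In both of these the 3 A-DON values lay above the 3 DON values (exact permutation p = 0.1, the smallest that 3 rats against 3 allow, adjusted p = 0.2). Cxcl1 thus had the larger difference in these libraries, by an amount that rests on 3 and 0 reads in A-DON replicates 1 and 3: the difference of 2.38 between the groups in the Cxcl10 to Cxcl1 log2 ratio was 0.99 with 8 added before the log2 and 3.60 with 0.1 added. The difference of 2.63 in the Cxcl12 to Cxcl1 log2 ratio was 1.15 with 8 added and 3.87 with 0.1 added, and 1.503 without A-DON replicate 3.

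The genes whose pattern over the 6 libraries was most like that of the most abundantly read chemokines were sought among 14701 genes averaging 50 or more normalized counts. For Cxcl12 the nearest was ENSRNOG00000017706, with a likeness (Pearson's r of log2 values over the 6 libraries, as a description only) of 0.9992, and 656, 810.2 and 695 normalized counts in A-DON replicates 1, 2 and 3, against 1172, 948 and 919 in DON replicates 1, 2 and 3. Its log2 fold change was -0.49, so it followed the same order of libraries over a far smaller range. For Cxcl10 the nearest was ENSRNOG00000011718, with a likeness of 0.9987, and 24.1, 133 and 13.8 normalized counts in A-DON replicates 1, 2 and 3, against 231, 241 and 208 in DON replicates 1, 2 and 3. Its log2 fold change was -2.63. With so many genes searched over 6 libraries in separate groups, likeness of this size is not in itself a finding, and neither ID is paired with a gene name in the files used here.

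**Figure D5:**
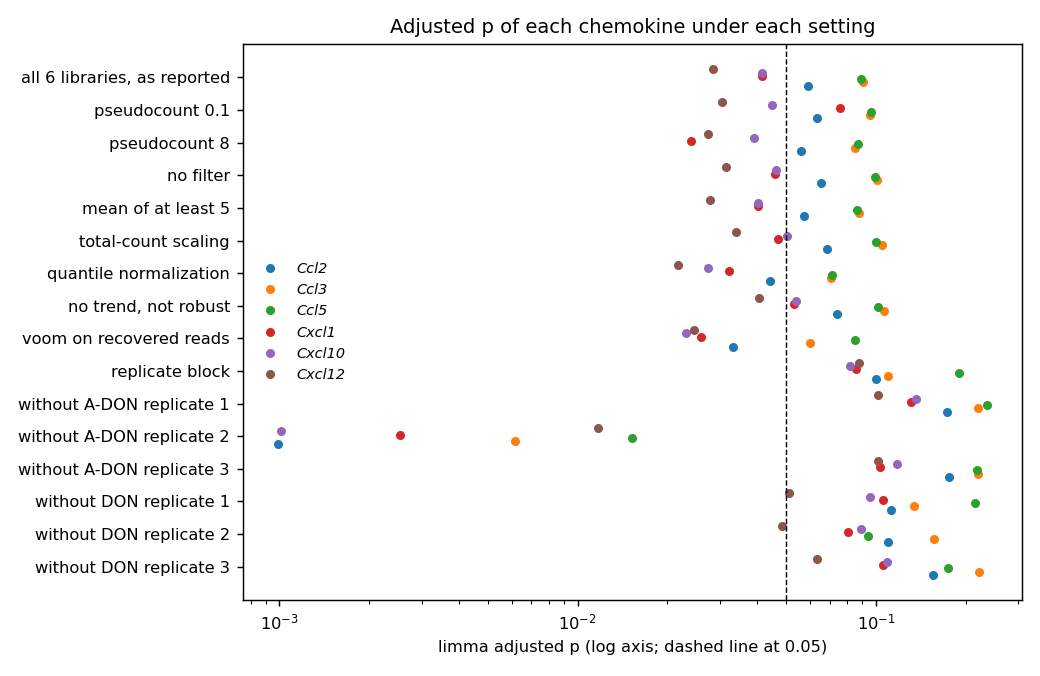
limma adjusted p of each chemokine (x axis, log scale, dashed line at 0.05) under each processing setting (rows). Leaving out A-DON replicate 2 is the only setting run in which all 6 chemokines lie left of the line, with adjusted p up to 0.015.

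The calls depended on single libraries. Without DON replicate 2, Cxcl12 alone passed (limma adjusted p = 0.048; background of 5.66% of tested genes that fell). Without A-DON replicate 1, A-DON replicate 3, DON replicate 1 or DON replicate 3, 0 of the 6 passed, and the background was then 0.0154%, 0.00512%, 6.65% and 1.13%. Each of these fits has fewer rats and fewer residual degrees of freedom. The 6 log2 fold changes were negative in all of them.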

How the data were processed

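Stranded mRNA-seq libraries of spinal cord from 6 rats, 3 per group, were sequenced on an Illumina NovaSeq, per the labels' protocols. The build rn6 and the tools STAR 2.5.3a, StringTie 1.3.1c and FastQC 0.11.2 appear, without their roles, in the submitters' processing notes. Which program counted reads, with what strand setting and gene annotation, is not given in the sources used here. As deposited by the authors, the values are on a log2 scale from 0 to 19.8. With the log2 undone and 1 subtracted, 100% of values were whole multiples of 1 step per library (tolerance 0.05 reads), and the inverse steps, 0.927 to 1.05, were median-of-ratios size factors, so the deposited values are log2(read count / size factor + 1), worked out from the values. Counting intervals cover counting error only, since no molecular identifiers are mentioned. No 2 libraries agreed within sampling noise (chi-square divided by its degrees of freedom, 21.9 or more). Replicates are separate rats.

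Differences of A-DON from DON were tested in limma 3.58.1 (R 4.3.3) on group alone, with trend and robust moderation, over genes with at least 1 normalized count in at least 3 libraries; p-values were adjusted by Benjamini-Hochberg over all of them. Ratios were compared by exact permutation (scipy 1.17.1). Motifs were searched in the promoter table of RefSeq (GRCr8), which held 3 of the 6 genes; Ccl2, Ccl3 and Ccl5 had no entry. Alternatives were other pseudocounts, filters, scalings and moderation, voom on the recovered reads, a replicate block, and each library left out in turn.

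The members and lists were chosen with earlier results of these data known. The 6 IDs and their symbols come from the definition of the gene set. The reference table at hand pairs 0 of the 22526 IDs with a symbol, so the other 17 lists (chemokine receptors, other chemokines, inducers, interferon signalling and cell type markers, spinal cord markers among them) could not be matched and gave no value. Named genes are all 6 members plus, with no symbols at hand, the nearest gene in pattern to each of the 2 most abundantly read members.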

Additional observations from a re-analysis of the deposited data

How the results depend on the processing

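All 6 chemokines kept negative log2 fold changes under all 15 settings. Under the 9 settings that kept every library, Cxcl12 passed in 8, Cxcl1 and Cxcl10 in 6 each, Ccl2 in 2, and Ccl3 and Ccl5 in 0 (limma). Ccl2 passed with quantile normalization (log2 fold change -2.70, limma adjusted p = 0.044) and with voom on the recovered reads (-2.85, adjusted p = 0.033). Cxcl1 missed the threshold with 0.1 added before the log2 (-5.85) and without trend and robust moderation (-4.62, adjusted p = 0.053), and Cxcl10 with total-count scaling (-2.14) and without trend and robust moderation (-2.24). The cause was not tested.

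With a replicate block, 0 genes passed, higher or lower (limma; 7601 at an unadjusted p under 0.05), and Cxcl1 (-4.62), Cxcl10 (-2.24) and Cxcl12 (-1.98) missed the threshold with limma adjusted p of 0.086, 0.082 and 0.088. That fit has fewer residual degrees of freedom. Deviations from the group mean were not shared by same-numbered rats (r = -0.17, -0.24 and -0.08 across genes), so the numbers were not taken to pair rats.

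Leaving out 1 library gave log2 fold changes from -3.89 to -2.17 for Ccl2, -3.42 to -1.56 for Ccl3, -3.81 to -1.95 for Ccl5, -6.09 to -3.39 for Cxcl1, -2.99 to -1.71 for Cxcl10 and -2.34 to -1.53 for Cxcl12. The limma adjusted p was highest without A-DON replicate 1 for Ccl5 (0.24), Cxcl1 (0.13) and Cxcl10 (0.14), without A-DON replicate 3 for Ccl2 (0.18) and Cxcl12 (0.10), and without DON replicate 3 for Ccl3 (0.22). The counts over all genes ran from 12 to 9286 past the threshold (6930 with all libraries), 11 to 4431 higher and 1 to 4855 lower in A-DON. They were lowest without A-DON replicate 3 and highest without A-DON replicate 2. The group difference in the log2 ratio of Cxcl10 to Cxcl1 (2.38) moved to 3.60 with 0.1 and to 0.99 with 8 added before the log2. Ccl5 and Cxcl1 rest on 0 to 6 reads in A-DON replicates 1 and 3, libraries that held more reads in total than A-DON replicate 2. A-DON replicates 1 and 3 held fewer reads in total than any DON library.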
